A study of Mus musculus with 18 samples.

Results

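The 2457 CTCF sites described here lay in stretches of liver chromatin that carried H3K27ac, the histone mark of active enhancers and promoters. The sites themselves, though not always the stretches around them, lacked H3K4me3, the mark of active promoters. They were chosen from the peak lists themselves. The 4 CTCF lists were merged by an overlap of at least 1 bp into 30021 regions on chromosomes 1 to 19 and X, and 22043 of these were called in both wild-type libraries. A site was kept if the wild-type H3K4me3 list did not touch it and if it overlapped an H3K27ac region called in all 3 wild-type H3K27ac lists, which left 11.1% of the sites of both wild-type libraries. They are called distal acetylated CTCF sites below. Of the other sites of both wild-type libraries, 2123 overlapped H3K4me3 (promoter sites), 16739 overlapped no wild-type H3K27ac region (unmarked sites) and 724 overlapped one called in only 1 or 2 of the 3 lists.

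The study profiled chromatin of mouse liver by ChIP-seq in WT (CTCF fl/fl Albcre-) and KO (CTCF fl/fl Albcre+) C57BL/6 mice, all 8 weeks old. Both genotypes carried the floxed Ctcf alleles, and KO mice also carried Cre driven by the albumin promoter, which acts in hepatocytes and leaves Ctcf in the other cells of the liver. The 18 libraries comprised CTCF (WT164 and WT165 against KO160 and KO163), PPARg (WT 2 and WT 4 against KO 7 and KO 8), H3K27ac (WT 1, WT 2 and WT 4 against KO 2, KO 3 and KO 4), H3K4me3 (WT 2 and KO 4) and H3K27me3 (WT156 and KO150). Tagmentation was used for the CTCF libraries and for 3 of the PPARg libraries (WT 2, KO 7 and KO 8), from male mice on chow that had been fasted overnight. The histone libraries and PPARg WT 4 were ligation libraries, for which the labels state no sex or fasting. The labels do not say whether libraries of a group came from separate animals, so the tests below measure the spread between libraries.

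CTCF is a zinc-finger protein that binds a long, conserved DNA motif and, with cohesin, holds the ends of chromatin loops. Some of its sites insulate an enhancer from genes beyond it, and others lie next to enhancers and promoters that they bring together. In hepatocytes, distal H3K27ac regions are mostly enhancers bound by liver transcription factors and nuclear receptors, among them the PPAR family, which controls the burning and storage of fat.

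Peak lists carry no read depth. The CTCF lists held 18597 to 27580 peaks, with both KO lists shorter than both WT lists, and the PPARg lists held 15514 to 27431 peaks, with both KO lists longer than both WT lists. The H3K27ac lists covered 78.2 to 91.5 Mb in 5 libraries and 126 Mb in KO 4, which stood apart. At marker genes the WT H3K4me3 list had a peak at 10 of 10 hepatocyte marker genes, at 0 of 10 Kupffer cell markers, at 4 of 10 stellate, 7 of 10 endothelial, 3 of 10 cholangiocyte and 1 of 10 lymphocyte markers, and at 0 of 9 neural stem cell markers. The KO list had 10, 0, 7, 9, 3, 2 and 1 in the same order. The lists hold no RNA and no coverage of the deleted exons, so the deletion of Ctcf itself was not checked.

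The bases under a few of these sites could be read because the 300-base RefSeq promoter windows of build GRCm38.p6 (the build mm10 of the peak lists) reach into them. Of 53 such windows that lay whole inside 50 distal acetylated sites, 29 (54.7%) held a 7-base core of the CTCF motif, which was searched on both strands as AGGGGGC and as its variants spelled AGGTGGC, those spelled AGAGGGC and those spelled AGATGGC. The core was in 27.7% of all 32583 windows of the table, in 68.3% of the 624 windows inside promoter sites and in 56.3% of the 270 inside unmarked sites. A match is a run of letters and not a measured contact, and these windows are starts of annotated genes, mostly noncoding ones, in which WT H3K4me3 was not called at the site. The bases within 40 of the CTCF summit of WT164 are shown 5′ to 3′ on the strand of the gene, as far as they lay before its start, for 4 sites called in all 4 CTCF libraries that held a core, with the core in capitals.
B230206L02Rik, chr11:94133381-94133455, plus strand: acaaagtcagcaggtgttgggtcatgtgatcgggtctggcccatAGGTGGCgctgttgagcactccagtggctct
Gm30470, chr11:79224580-79224660, plus strand: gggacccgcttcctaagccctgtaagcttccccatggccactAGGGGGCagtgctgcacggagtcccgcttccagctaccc
Gm38588, chr7:98481157-98481237, plus strand: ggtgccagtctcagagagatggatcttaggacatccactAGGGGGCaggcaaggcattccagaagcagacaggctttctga
Gm41874, chr19:57404303-57404383, plus strand: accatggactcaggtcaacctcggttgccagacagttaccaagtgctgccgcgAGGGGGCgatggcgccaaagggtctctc
In these 4 the middle base of the core lay 7, 5, 2 and 16 bp from the summit in the order shown. Their fold enrichments in the authors' lists, which are each peak's own value, were 16.1, 12.6, 15.4 and 14.6 in WT164, 14.7, 13.1, 10.8 and 15.1 in WT165, 17.8, 14.6, 10.0 and 11.7 in KO160, and 12.6, 12.4, 13.8 and 11.4 in KO163. Of 31 windows at the 30 sites whose summit lay before a start, 9 held a core in the bases within 40 of the summit. For contrast, the strongest of the 30 sites and both sites that were called in neither KO library held none there.
Abhd11os, chr5:135013158-135013223, minus strand, called in all 4: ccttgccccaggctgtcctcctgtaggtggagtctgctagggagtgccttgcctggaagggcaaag
Gm40221, chr4:107937355-107937435, plus strand, called in neither KO library: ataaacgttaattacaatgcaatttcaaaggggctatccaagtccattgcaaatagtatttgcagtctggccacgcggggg
Mrpl20, chr4:155802665-155802745, plus strand, called in neither KO library: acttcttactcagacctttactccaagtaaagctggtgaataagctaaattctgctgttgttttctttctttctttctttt
The site at Abhd11os had a fold enrichment of 24.5 in WT164 and 25.9 in WT165, and those at Gm40221 and Mrpl20 had 5.81 and 4.43, and 5.41 and 5.03. These letters say only that no listed core is in the printed stretch. Over the whole windows the nearest core lay 118 bp from the summit at Abhd11os and 104 bp at Mrpl20. Thus 1 of the 2 windows at lost sites held a core.

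The sites were narrow and mostly near genes. Their median width was 813 bp (quartiles 591 and 1100 bp), 55.9% lay inside the span of a protein-coding gene, and the median distance to the nearest RefSeq start was 11906 bp. That placed them between promoter sites (728 bp) and unmarked sites (20645 bp). Only 135 of the 2457 (5.49%) lay within 1 kb of a start. Of the 2279 H3K27ac regions that held such a site, 2119 held 1 and 160 held 2 or more. The X chromosome held 15 of them, 3.25% of its 461 sites of both WT libraries, the lowest share of any chromosome, and chromosomes 11 and 15 held the highest (13.2% each).

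The limits of the rule bear on what these sites are. At 1479 of the 2457 the CTCF peak itself was overlapped by an H3K27ac peak in each of the 3 WT lists, and at the other 978 the mark of at least 1 list lay beside the CTCF peak within the same merged region. A WT H3K4me3 peak lay within 1 kb of the midpoint of 263 sites without touching the site. Of the 2279 H3K27ac regions that held a site, 805 (35.3%) also overlapped a WT H3K4me3 peak. Of all 24778 regions called in all 3 WT lists, 43.2% did. Just outside the rule were 686 sites in acetylated regions without H3K4me3 that only 1 WT library called, with a median strength percentile of 13.7 in that list, where the weaker of both WT percentiles had a median of 49.8 over the sites inside.

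Protein-coding genes with a distal acetylated CTCF site within 20 kb numbered 3131 of 21627 (14.5%). Among genes listed for liver functions, 10 of 20 hepatocyte transcription factors, 13 of 30 plasma proteins, 6 of 14 amino acid and urea cycle genes, 7 of 12 gluconeogenesis and glycogen genes, 10 of 18 fatty acid and triglyceride synthesis genes, 7 of 18 PPARg target and lipid droplet genes and 9 of 18 clock genes had one. Lower counts were seen for fatty acid oxidation and ketogenesis (4 of 20), bile acid and cholesterol (5 of 19), xenobiotic metabolism (6 of 17), architectural proteins (3 of 14) and housekeeping genes (4 of 15). The shares of these lists, from 20% to 35.3%, were also above the 14.5% of all genes, with housekeeping genes at 26.7%. Of cell type markers, 6 of 10 hepatocyte genes had one, against 0 of 10 Kupffer cell, 2 of 10 stellate, 3 of 10 endothelial, 2 of 10 cholangiocyte, 2 of 10 lymphocyte and 1 of 9 neural stem cell genes. Ctcf itself had a distal acetylated site 13275 bp away, with fold enrichments of 10.4 in WT164, 7.32 in WT165, 6.98 in KO160 and 8.44 in KO163.

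In KO liver most of these sites were still called. KO160 called 1940 of the 2457 (79.0%, Wilson 95% interval 77.3 to 80.5) and KO163 called 2027 (82.5%, 80.9 to 84.0). In all, 1836 sites (74.7%) were called in both KO libraries and are termed retained, 295 in 1 of them, and 326 (13.3%, 11.98 to 14.7) in neither. The last are termed lost, which means only not called. Over all sites of both WT libraries 13.4% were called in neither KO library and 72.3% in all 4, so the distal acetylated sites stood near that background. Both WT calls were required by the rule and KO calls were not, so lower numbers in KO are built in and no test was made. The KO lists were also shorter, and when every CTCF list was cut to the length of the shortest, 3.11% of distal acetylated sites were called in neither KO library and 89.3% in all 4. With WT165 left out and WT164 alone deciding the WT call, 24.6% were called in neither. Intervals cover counting error over sites alone, and in whole liver a site bound in fewer cells cannot be told apart from a site bound less in each cell.

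Which sites dropped out followed their strength in WT, taken as the mean percentile of the −log10 q over both WT lists. The median percentile was 57.7 over all distal acetylated sites, 24.1 over the lost and 67.4 over the retained. The sites of both WT libraries were cut into 10 strength classes of equal size. In the weakest class 134 of 230 distal acetylated sites were lost (58.3%, 51.8 to 64.4), in class 5 it was 6 of 246 (2.44%), and in the 3 strongest classes 0 of 271, 0 of 259 and 0 of 220, with upper bounds of 1.40%, 1.46% and 1.72%. Weighting the classes equally gave a lost share of 13.8% for distal acetylated, 10.8% for promoter and 13.7% for unmarked sites. Against unmarked sites of the same strength class, distal acetylated sites were called more often in 8 of 10 classes by KO160 and in 5 of 10 by KO163, and against promoter sites in 3 and 4 of 10. The order of the 3 kinds of site differed between the KO libraries and between strength classes.

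**Figure D1:**
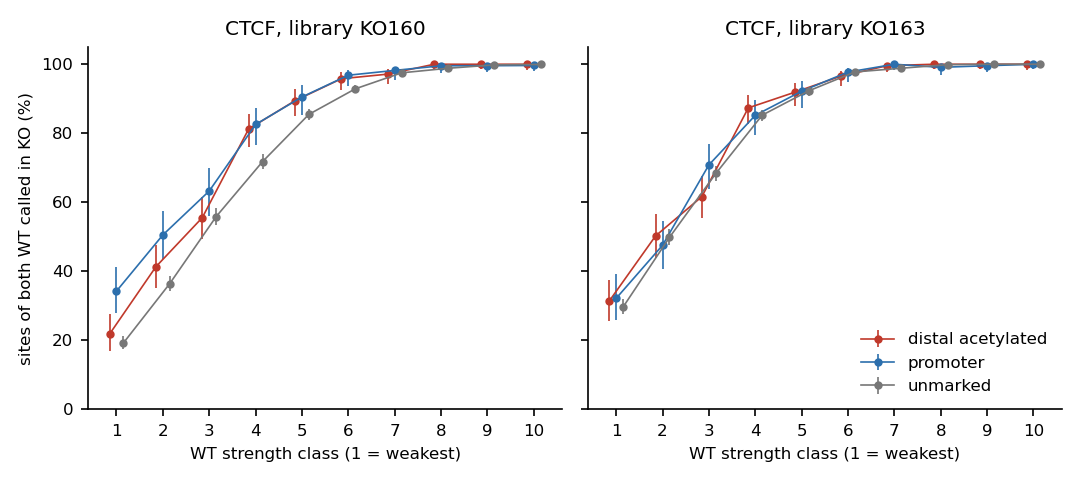
Share of CTCF sites of both WT libraries that KO160 (left) and KO163 (right) called, in percent, by WT strength class from 1 (weakest) to 10 (strongest), for distal acetylated, promoter and unmarked sites (points with Wilson 95% intervals). In both libraries the share of distal acetylated sites climbs from 21.7% and 31.3% in the weakest class to 100% in the strongest.

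The lost sites with the best WT percentiles were of middling strength. The first lay inside Map7, which encodes a microtubule-associated protein (chr10:20170405-20170934), with fold enrichments of 13.5 in WT164 and 9.60 in WT165 and no call in KO160 or KO163. It was followed by sites inside Dlc1, a GTPase-activating protein (8.55 and 13.96), 118 kb from Tbl1xr1, a subunit of the NCoR corepressor (11.1 and 11.7), inside Thpo, the thrombopoietin gene that liver expresses (8.70 and 8.22), and inside Prkaca, the catalytic subunit of protein kinase A (5.88 and 13.2). The other 5 lay at Adgrv1, Rassf3, Clint1, Schip1 and Reg4. All 10 had WT percentiles of 49.1 to 67.6.

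The retained sites with the best WT percentiles had them at 99.6 or above. The first lay 1567 bp from Nemp1, a nuclear envelope gene (chr10:127673988-127675497), with fold enrichments of 51.7 in WT164, 60.4 in WT165, 44.6 in KO160 and 39.9 in KO163. The second lay 3167 bp from Nemf (48.2, 42.4, 39.8 and 44.9 in the same order), and the third 764 bp from Dgat2, the enzyme of the last step of triglyceride synthesis (32.6, 42.3, 29.6 and 29.8). The others were at Srp14, H2-T24, Lrrc74a, 1600014C10Rik, Fpgs (folylpolyglutamate synthase), Epb41l4b and Gsto2 (a glutathione transferase). Folds from different lists are not on one scale, so they rank sites within a list and show no change between genotypes.

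Distal acetylated sites lay towards the rims of their H3K27ac regions. The midpoint of 576 of the 2457 sites fell outside the region that the site overlapped, and that of 611 fell within 500 bp inside its nearer edge, so that 48.3% were near or beyond an edge against 35.7% of the 1897 promoter sites in such regions. Regions of distal sites were also wider (median 5203 against 3610 bp). By position relative to width, 48.4% of distal and 26.6% of promoter sites were outside or within 10% of the region's full width from its nearer edge. With regions merged from the 3 WT lists alone, the near-edge shares were 58.1% of 2125 distal and 47.2% of 1879 promoter sites. This measure uses the WT H3K27ac lists that chose the sites and is a description.

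The mark was lopsided around them. Each site was turned so that the side with more H3K27ac in WT 1 lay to the right, and the other 5 libraries were then read. In the 0.25 kb bin at 1.1 kb on the heavier side, peaks covered on average 77.4% of the bin in WT 2 and 69.2% in WT 4, and at the same distance on the lighter side 23.9% and 20.2%. The KO libraries gave 67.5%, 74.1% and 87.1% on the heavier side (KO 2, KO 3 and KO 4) and 20.7%, 24.3% and 33.6% on the lighter. KO 4 was the highest library on both sides, and KO 2 and KO 3 lay close to the WT values. At promoter sites peaks covered 71.0% and 64.8% of the bin on the heavier side in WT 2 and WT 4, and 24.1% and 20.5% on the lighter. Such a fall is therefore not particular to distal sites, and turning by WT 1 favours it at any kind of site.

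**Figure D2:**
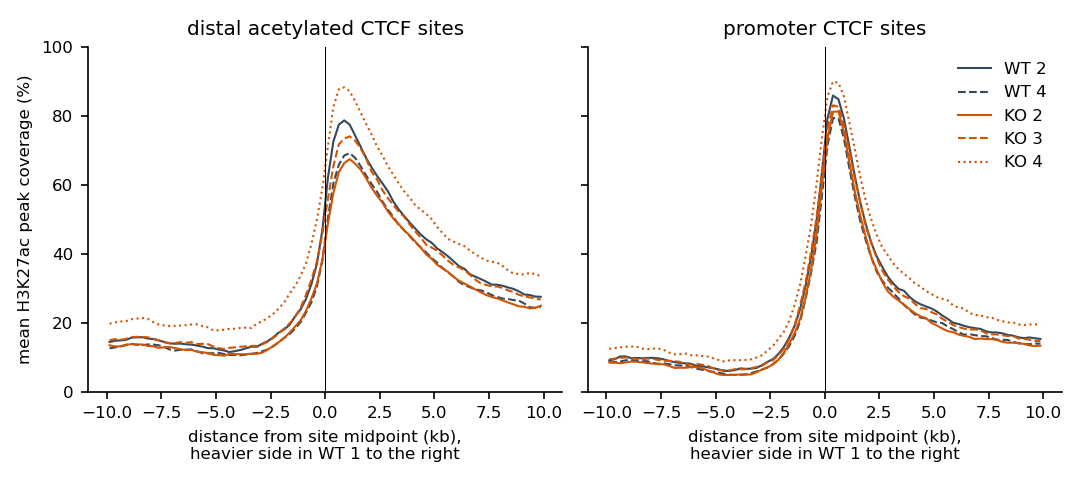
Percentage of each 0.25 kb bin that H3K27ac peaks covered, as a mean over CTCF sites, by distance from the site midpoint (kb), turned so that the heavier side in WT 1 lies to the right, for distal acetylated (left) and promoter sites (right). Lines are the 5 libraries that were not used to turn the sites. At distal sites the mark falls from 77.4% at 1.1 kb on the heavier side to 23.9% on the lighter side in WT 2, and all 5 lines fall across the site.

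Loss of CTCF calls and PPARg occupancy both differed along this axis. Sites whose midpoint lay outside the region were lost in 6.94% of cases (5.14 to 9.32), those up to 500 bp inside in 11.9%, those 0.5 to 2 kb inside in 15.3%, and those more than 2 kb inside in 18.96% (15.8 to 22.6). WT strength moved with position, from a median percentile of 65.9 outside to 51.9 deepest inside, and with 5 strength classes weighted equally the lost shares were 11.2%, 13.0%, 13.8% and 15.8%. PPARg peaks within 1 kb were found at 8.51%, 20.6%, 29.9% and 35.4% of these sites in WT 2 and at 18.9%, 32.6%, 45.9% and 54.5% in KO 7. The same weighting gave WT 2 shares of 8.44%, 20.7%, 29.7% and 35.2%, and KO 7 shares of 18.8%, 32.8%, 45.5% and 55.1%. Promoter sites showed a like order for PPARg in WT 2 (7.74%, 10.6%, 19.7% and 43.1%). Their lost shares were 2.98%, 6.47%, 13.6% and 11.1% in the same order, also lowest outside the region, so neither order is particular to distal sites. These splits were chosen after the data were seen.

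**Figure D3:**
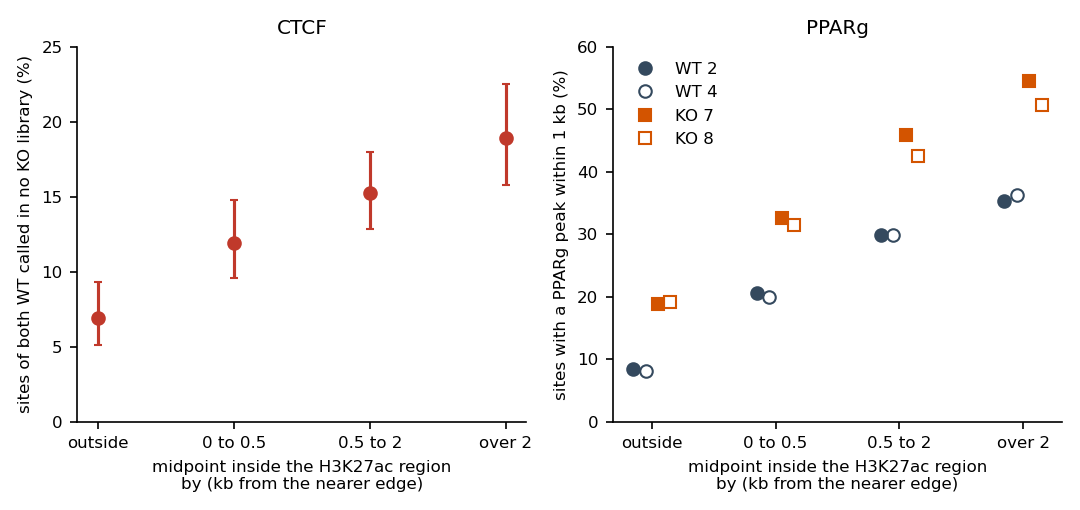
Distal acetylated CTCF sites by how far their midpoint lay inside the H3K27ac region (kb from the nearer edge). Left, percentage of sites of both WT libraries called in no KO library (points with Wilson 95% intervals), from 6.94% outside to 18.96% deepest inside; right, percentage with a PPARg peak within 1 kb in each library, with both KO libraries above both WT libraries at every position.

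The amount of H3K27ac around the sites is given as a description. The rule asked for H3K27ac in all 3 WT lists and for nothing in KO, which favours lower values in KO. No p is therefore given for WT against KO on this mark, and counts from the fit to single sites are a description. H3K27ac peaks covered 37.1%, 40.04% and 35.5% of the 10 kb around the sites in WT 1, WT 2 and WT 4, and 35.1%, 39.1% and 48.2% in KO 2, KO 3 and KO 4. KO 2 and KO 3 lay within or next to the WT range and KO 4 alone lay above it. The means were 37.6% ± 2.31 in WT and 40.8% ± 6.73 in KO (SD, n = 3 each), a difference of 3.28 percentage points that is smaller than the SD of the KO libraries. Without KO 4 the difference was -0.42 points, with all lists cut to equal covered length it was 0.105, and with each value divided by the total length its library covered it was -2.28 (on the scale of the mean library).

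The contrast between the 2 sides, a description under the same limits of the rule, had the same mean in both genotypes. The mean absolute difference between the 5 kb left and right was 42.0, 43.4 and 40.6 percentage points in WT and 39.7, 41.6 and 44.6 in KO, with group means of 42.0 ± 1.43 and 42.0 ± 2.49 (SD, n = 3 each). KO minus WT was -1.81 points with H3K27ac lists cut to equal covered length, where all 3 KO libraries lay below all 3 WT libraries, and -5.43 after division by covered length. Sites acetylated on 1 side only, with at least 50% of the heavier and at most 10% of the lighter side covered, made up 26.0%, 26.8% and 24.7% in WT and 24.8%, 26.0% and 25.5% in KO. At promoter sites that share was 12.01% to 13.1% in all 6 libraries. At the 326 lost sites the contrast was 37.7 ± 1.31 points in WT and 36.2 ± 1.34 in KO, and at the 1836 retained sites 42.7 ± 1.36 and 43.1 ± 2.90. Lost minus retained was -5.02 ± 0.61 points in WT and -6.91 ± 1.59 in KO.

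**Figure D4:**
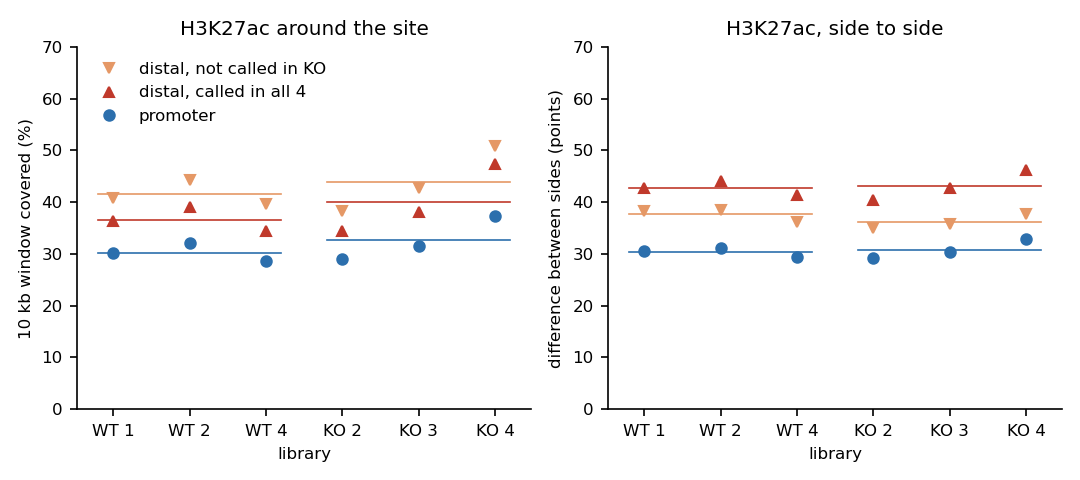
H3K27ac at CTCF sites in each of 6 libraries, with lines for group means: left, percentage of the 10 kb around the site covered by peaks; right, mean absolute difference between its 2 sides in percentage points. Lost and retained distal acetylated sites and promoter sites are shown apart, and KO 4 is the highest library for all 3 in the left panel.

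At single sites the fit across all CTCF regions is a description too, since it compares WT values that took part in the rule. A count of 0 calls does not show that the mark was unchanged. Limma was fitted to the covered percentage at the 13974 CTCF regions that varied, 2442 of them distal acetylated, and with Benjamini-Hochberg adjustment it called 0 sites higher and 0 lower in KO, here as over all regions (0.00% each way). Before adjustment 209 distal acetylated sites (8.56%) were past 0.05 in the higher direction and 71 (2.91%) in the lower, against 5.88% and 1.44% of all regions. In 240 (9.83%) all 3 KO values lay above all 3 WT values and in 89 (3.64%) below, against 8.22% and 2.18% of all regions. The median change was 2.56 points, and it was -0.41 without KO 4 and -2.44 after division by covered length, so the balance between both directions rests on KO 4 and on scaling. The rule kept out sites with the mark in KO alone and let in sites without it in KO. The KO lists also helped to draw its regions, so the shares in each direction are a description.

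The sites ranked first by limma in each direction are given as values, with no test. Within Ppp5c, the protein phosphatase 5 gene, a lost CTCF site (chr7:17007388-17007867) had 53.2%, 57.1% and 56.8% of its 10 kb covered in WT and 74.4%, 73.7% and 76.3% in KO. The groups did not overlap, and the difference was 19.1 ± 2.06 points (standard error). Near 2610008E11Rik the WT values were 2.08%, 4.56% and 4.11% and the KO values 17.5%, 18.6% and 16.8%. The other 3 on the higher side were near Rpia (ribose-5-phosphate isomerase), in Capzb (an actin-capping subunit) and near Pik3c2g (a class II phosphoinositide kinase). On the lower side, the site in Grb14, an adaptor that binds the insulin receptor (chr2:64965256-64966021), had 18.96%, 17.1% and 21.5% in WT, where KO 2, KO 3 and KO 4 had 0%, 0% and 4.30%. The site nearest Ak4, a mitochondrial adenylate kinase, had 53.95%, 55.8% and 59.2% in WT and 27.2%, 37.1% and 31.7% in KO. Those nearest Abca4, Efna1 (ephrin A1) and Zfp37 completed the list, and all 5 were called for CTCF in all 4 libraries.

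PPARg peaks were common at these sites and more common in both KO libraries. A PPARg peak lay within 1 kb of the midpoint at 23.7% of the 2457 sites in WT 2, 23.7% in WT 4, 38.1% in KO 7 and 36.0% in KO 8. Both WT libraries had the same share to 3 digits, although they were made by different kits and the WT 4 list reached down to a −log10 q of 1.31 where the other 3 stopped near 3.0, and both KO libraries lay above them. The means were 23.7% ± 0.0288 and 37.0% ± 1.497 (SD, n = 2 each), a difference of 13.3 points with an exact two-sided permutation p of 0.333, the smallest that 2 against 2 allows. The KO lists held 1.67 times as many peaks, and with all 4 lists cut to equal length the shares were 23.7%, 22.7%, 28.0% and 27.6%, a difference of 4.56 points. With peaks of −log10 q of at least 10 they were 13.02%, 8.63%, 24.9% and 22.1%.

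The ratio of KO to WT in the share of these sites with a peak, 1.56, was below that of unmarked sites (2.65) and above that of promoter sites (1.29). The 1.67 of whole lists is a ratio of peak counts and so another measure. By the percentage of the 2 kb window covered, the ratios were 2.30 at distal acetylated, 3.34 at unmarked and 1.67 at promoter sites. Promoter sites had 18.3%, 17.9%, 24.2% and 22.4% with a PPARg peak in WT 2, WT 4, KO 7 and KO 8, and unmarked sites 0.62%, 0.62%, 1.59% and 1.69%. The gap between distal acetylated and promoter sites was 5.45 and 5.84 points in WT and 13.9 and 13.6 in KO (exact permutation p = 0.333, the smallest possible). Lost sites had PPARg more often than retained ones in every library: 30.1%, 30.4%, 48.8% and 44.8% of lost sites against 21.6%, 21.4%, 35.0% and 33.3% of retained sites. The gap between lost and retained was 8.49 and 9.02 points in WT, where CTCF was called at both, and 13.8 and 11.5 in KO (exact permutation p = 0.333). Lost sites were also weaker and lay deeper inside their regions, and the part of strength and position in this gap was not tested.

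**Figure D5:**
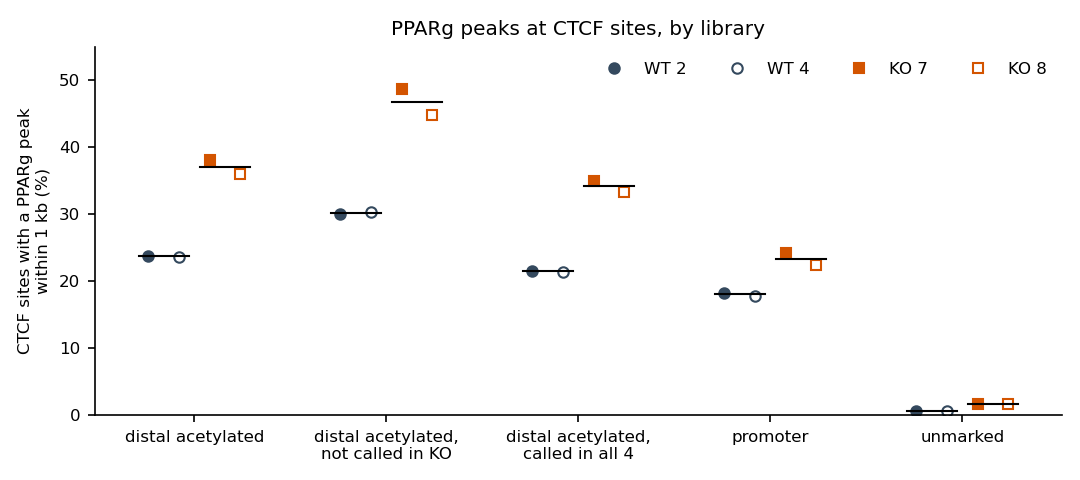
Percentage of CTCF sites with a PPARg peak within 1 kb of the midpoint in WT 2, WT 4, KO 7 and KO 8, with black lines for the mean of the libraries of a genotype. All 5 groups of sites have both KO libraries above both WT libraries, and lost distal acetylated sites have the highest shares (30.1% and 30.4% in WT, 48.8% and 44.8% in KO).

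By site, 440 of the 2457 (17.9%) had a PPARg peak in all 4 libraries. Of all merged CTCF regions 3.43% did, and of promoter sites 10.9%. In both KO and neither WT library 195 had one (7.94%, all regions 1.80%, promoter sites 4.19%). In both WT and neither KO library 11 had one (0.448%, all regions 0.170%, promoter sites 1.04%). The remaining sites had none in any library (1362) or another mixture (449). Among lost sites 35 of 326 (10.7%) and among retained sites 138 of 1836 (7.52%) were in the KO-only pattern. Left with 1 WT library to decide, the KO-only pattern held 269 sites without WT 2 and 265 without WT 4.

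The limma fit to the percentage of the 2 kb around each site that PPARg peaks covered called 136 distal acetylated sites higher in KO and 0 lower (adjusted p under 0.05), of 1095 that varied. That is 12.4% of them, beside 9.80% of all 3142 regions tested called higher and 0.0318% called lower. Before adjustment 416 were past 0.05 in the higher direction and 8 in the lower, against 32.2% and 1.56% of all regions. The 136 calls need both WT libraries: without WT 2 or without WT 4 there were 0 in either direction. There were 342 higher and 3 lower without KO 7, and 383 higher and 2 lower without KO 8. There were 62 higher with lists of equal length and 44 with a window of 0.5 kb each side, with 0 lower in both, and 9 higher and 1 lower when regions without variation were kept in the fit. The changes of the 136 ranged from 22.2 to 86.9 points with a median of 39.7. PPARg was called in all 4 libraries at 80 of them and in neither WT library at 37, and 31 of them were lost CTCF sites and 80 retained ones. The covered percentage also depends on the width of peaks. Over the whole PPARg lists the median peak width was 471 bp in WT 2, 345 bp in WT 4, 569 bp in KO 7 and 596 bp in KO 8. The lists covered 8.99, 6.90, 20.8 and 21.1 Mb in the same order. The part of peak width in these calls was not tested.

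The site with the lowest p lay in Plin5, which encodes a lipid droplet coat protein of fat-burning tissues and is a PPAR target (chr17:56111434-56112578, 1485 bp from Plin4). PPARg peaks covered 0% of its 2 kb in WT 2 and WT 4, 80.6% in KO 7 and 77.45% in KO 8, a difference of 79.0 ± 3.92 points (standard error; limma adjusted p = 0.0373). CTCF was called there in all 4 libraries, with folds of 14.5, 13.8, 9.62 and 9.83 (WT164, WT165, KO160, KO163), and H3K27ac covered 93.5% to 95.95% of its 10 kb in WT and 97.2% to 100% in KO. Near Scyl2, at a lost CTCF site, PPARg peaks covered 7.60%, 0.85%, 76.6% and 75.95% (WT 2, WT 4, KO 7, KO 8). PPARg was called near Scyl2 in all 4 libraries, with folds of 26.6, 18.2, 68.6 and 86.5 in the same order. Those folds belong to whole peaks, which can lie mostly outside the window, so low WT coverage was not a lack of PPARg there. In Eri2, another lost site, PPARg peaks covered 22.65%, 17.2%, 85.1% and 84.95% (WT 2, WT 4, KO 7, KO 8). In Mettl7a1 the values were 0%, 0%, 57.65% and 56.8%, and near Slc17a5, the lysosomal sialic acid transporter, 18.4%, 18.35%, 74.55% and 73.45%, both at retained sites. All 5 rose with a limma adjusted p of 0.0373.

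In the other direction no site passed. The lowest p-values belonged to retained sites in Ahdc1, with 16.3% and 15.1% covered in WT 2 and WT 4 and 0% in both KO libraries (limma adjusted p = 0.0767), in Adcy10 (23.1%, 14.15%, 0% and 0%), near Tns4 (15.0%, 13.15%, 0% and 0%), near Sdr9c7 (36.3%, 28.5%, 0% and 15.65%) and near Ptpn21 (11.7%, 13.5%, 0% and 0%). The KO-only PPARg peaks that ranked highest in the KO lists lay in Slc1a2, a glutamate transporter gene (folds of 81.2 in KO 7 and 71.9 in KO 8), in Abca1, the cholesterol exporter (69.1 and 52.2), near Oscar (62.1 and 55.6), near Slc25a47, a mitochondrial carrier of hepatocytes (59.0 and 55.5), and in Smarca4, the ATPase of a chromatin remodeller (52.3 and 60.1). WT 2 and WT 4 had no peak within 1 kb at these 5. Peaks of KO 7 and KO 8 covered 32.8% and 22.95% of the 2 kb at Slc1a2, 2.95% and 10.35% at Abca1, and 6.9% and 3.5% near Oscar. They covered 12.8% and 18.65% near Slc25a47, and 10.75% and 43.95% at Smarca4. A fold is that of the whole peak, which can lie mostly outside the window, and a WT peak just beyond 1 kb is not counted. None of the 5 passed the limma test (lowest adjusted p = 0.0539, at Slc1a2). CTCF was retained at Slc1a2, lost at Slc25a47 and called in 1 KO library at the other 3.

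Several H3K27ac regions held groups of these sites. A region of 25.9 kb at Sdr9c7 and Hsd17b6, genes of steroid and retinoid dehydrogenases, held 5 (chr10:127945266-127971140), of which 3 were lost and 2 retained. PPARg peaks lay at 2 of the 5 in WT 2 and in WT 4, at 3 in KO 7 and at 4 in KO 8. The region over Hnf4a, the hepatocyte nuclear receptor, and Ttpal (chr2:163567626-163604035) held 4 sites, all retained, with PPARg at 3, 3, 4 and 4 of them in the same order. A region at Trmt1, Lyl1 and Nfix (chr8:84698011-84715127) held 4, of which 1 was lost, with PPARg at 0, 0, 2 and 2. The region at Clptm1, Apoc2 and Apoe, which includes apolipoprotein genes (chr7:19663700-19704467), held 3, with 1 lost and PPARg at 2 in each library, and one at Crcp (chr5:130017639-130046672) held 3, with 0 lost. These last 2 are the widest of 11 regions with 3 sites. H3K27ac covered 70.6% to 99.9% of these 5 regions in all 6 libraries.

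Of all 3131 protein-coding genes with a distal acetylated site within 20 kb, 2543 (81.2%) had a retained one and 454 (14.5%) a lost one. The counts for the lists below are set beside these shares and no list was tested. Of 10 hepatocyte transcription factor genes with a site, 7 had a retained and 3 a lost one. A site inside Hnf4a was retained with CTCF folds of 19.7, 17.5, 15.0 and 20.3 (WT164, WT165, KO160, KO163), and another 13212 bp from the gene with 17.3, 10.3, 13.3 and 10.8. The second had PPARg folds of 25.5, 20.003, 55.6 and 40.4 in WT 2, WT 4, KO 7 and KO 8 and H3K27ac over 100% of its 10 kb in all 6 libraries. Sites 3353 bp from Cebpb and inside Nr1h4, the bile acid receptor FXR, were called in all 4 libraries. In Ppara, the receptor of the fasting response, a site was lost (6.41 and 6.15 in WT164 and WT165), without PPARg in any library. A stronger site 18316 bp from Ppara was retained (12.4, 11.1, 12.8 and 8.69), with PPARg in all 4 libraries, so Ppara counts under both. Sites near Prox1 and Nr2f2 were lost.

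Of 7 gluconeogenesis and glycogen genes with a site, 5 had a retained and 2 a lost one. Pck1, the enzyme that commits carbon to glucose, had a retained site inside the gene (CTCF folds of 8.55, 6.36, 9.33 and 5.05) and a lost one 11447 bp away (6.82 and 4.33 in WT). PPARg was called at both in all 4 libraries. A site 17258 bp from G6pc, whose product releases free glucose, was retained, one in Gys2, liver glycogen synthase, was called by 1 KO library, and a site 6592 bp from Pygl, liver glycogen phosphorylase, was retained.

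Among fatty acid oxidation genes, Ehhadh, a peroxisomal enzyme, had 3 distal acetylated sites within 20 kb and all were lost. The one inside the gene (chr16:21784951-21785478) had weak CTCF in WT (folds of 6.49 and 5.58) and PPARg folds of 69.6 in WT 2, 14.1 in WT 4, 201 in KO 7 and 171 in KO 8. H3K27ac covered 84.9%, 77.6% and 69.4% of its 10 kb in WT and 60.5%, 100% and 92.2% in KO, so the groups overlapped. Cpt1a, which admits fatty acids to mitochondria, had 3 retained sites, of which 1 had PPARg in all 4 libraries. Cpt2 had 1 lost site 13565 bp away without PPARg, the Gm40221 site whose bases are shown above.

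Among synthesis genes, the site 5238 bp from Fasn, fatty acid synthase, was retained (CTCF folds of 17.5, 11.9, 9.33 and 12.4) without PPARg. A site in Acaca was called by KO163 alone of the KO libraries, Acacb had a site of the same pattern and a retained one, and Acly, ATP citrate lyase, had a lost site and one called by KO163 only. All 7 PPARg target and lipid droplet genes with a site had a retained one and 0 had a lost one, beside 81.2% and 14.5% of all genes with a site. Besides Plin5 and Plin4, Cidec, a droplet fusion protein, had a site inside the gene with PPARg in all 4 libraries (folds of 20.7, 11.8, 31.6 and 21.9) and a site 5253 bp away with PPARg in KO 7 and KO 8 only (7.01 and 4.49). Fitm1 had PPARg at its site in all 4.

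All 13 plasma protein genes with a site had a retained one and 0 had a lost one, beside 81.2% and 14.5% of all genes with a site. Among them were Trf (transferrin), Fgb and Fgg (fibrinogen chains) and F5 (a clotting factor). The site 4855 bp from Fgg had CTCF folds of 15.9, 15.1, 7.65 and 12.2 and PPARg in all 4 libraries. Of 9 clock genes 8 had a retained and 2 a lost site (88.9% and 22.2%), beside the same 81.2% and 14.5%. Per1 had a strong retained site 1805 bp away (22.2, 20.4, 21.1 and 13.3), Per2 a retained site inside the gene (9.41, 12.3, 7.56 and 7.69), and Cry2 a lost site (5.39 and 5.45 in WT) with PPARg in all 4 libraries. Nr1d1, the REV-ERB alpha repressor, had a retained site 12700 bp away (23.1, 15.2, 13.3 and 12.8).

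Amino acid, bile acid and xenobiotic genes had sites of each kind. Tat, the first enzyme of tyrosine breakdown, had 2 retained sites, Hpd, which acts next in that pathway, had 2 retained sites and a lost one (CTCF folds of 4.87 and 5.58 in WT), and Got1 had a site called by KO160 only. Asl, an enzyme of the urea cycle, had 2 retained sites and 1 called by KO163 only. Cyp8b1, which sets the makeup of the bile acid pool, had a strong retained site 11663 bp away (21.6, 22.7, 24.4 and 21.2) without PPARg, and Cyp27a1 a retained one inside the gene. Of the first genes on the xenobiotic list, Cyp1a2 and Sult1a1 each had 2 retained sites, Cyp2a5 had 1, and Cyp2d10 had a site called by KO163 only. The housekeeping genes Gapdh, Eef1a1, Polr2a and Ywhaz each had 1 retained site, as did Ctcfl, the germline paralog of Ctcf, and Stag2, a cohesin subunit.

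H3K4me3 and H3K27me3 had 1 library per genotype, so no test was made. H3K4me3, absent in WT by the rule, overlapped 93 sites (3.79%) in KO 4, where 88.3% of promoter sites and 0.43% of unmarked sites had it. H3K27me3, the Polycomb mark, overlapped 3 sites in WT156 and 3 in KO150 (0.122% each), against 89 and 178 of the 16739 unmarked sites.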

How the data were processed

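Peaks were called per library on build mm10; BWA 0.7.12, MACS2 2.1.2, Picard 1.77 and deepTools 3.1.3 are named in the notes on processing by the submitters, and the control used for calling is not given in the sources used here. The authors deposited for each peak a fold enrichment (a ratio) and −log10 p and −log10 q values, used here only to rank, filter or describe peaks within a list; a whole-number score per peak that the authors also deposited was left aside. Deposited peaks reached down to a −log10 q near 3.0 for CTCF and 3 PPARg lists, 1.31 for PPARg WT 4 and 1.0 for H3K27ac, so lists differ in stringency. The growth protocol in the labels of the ligation libraries describes neural stem cells, although their tissue is liver.

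H3K27ac regions were merged from all 6 lists (57342 regions, 24778 called in all 3 WT). From the deposited intervals, the percentage of a window covered by peaks was computed around each CTCF midpoint (5 kb each side for H3K27ac, 1 kb for PPARg). PPARg libraries were compared by two-sided exact permutation tests over libraries (scipy 1.17.1, Python 3.11.15), and single sites with limma 3.58.1 in R 4.3.3, over all merged CTCF regions that varied, with Benjamini-Hochberg adjustment. The permutation tests planned for H3K27ac are not used, since its WT lists chose the sites and its KO lists helped to draw the regions. The limma step was tested on simulated data. Genes were the 21627 protein-coding RefSeq genes, and a distance is to the gene span. Members, gene lists and splits were chosen with earlier results of these data known.

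Sites were named by rule: the 10 lost and 10 retained with the best WT percentile, the 5 with the lowest limma p each way for both targets, the 5 best KO-only PPARg sites, the 5 regions with most sites (ties by width), and up to 4 genes a list in list order; Prox1, Nr2f2 and Ppara were named beyond it after their values were seen. Sites at some genes that the rule names are not reported here. Alternatives changed thresholds, overlaps, windows, list lengths and libraries. No genome was used, so the motif search covered RefSeq promoter windows in place of the sites themselves.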

Additional observations from a re-analysis of the deposited data

How the results depend on the processing

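The number of distal acetylated sites was 1567 with CTCF peaks of −log10 q of at least 10 and 1479 when the site itself had to be overlapped in all 3 WT lists, and 2453 to 2940 with 1 CTCF library and 2443 to 2640 with 1 WT H3K27ac library left out. The lost share was 3.11% with CTCF lists of equal length and 17.4% to 24.6% with 1 CTCF library and 12.9% to 13.1% with 1 WT H3K27ac library left out. The share called in all 4 was 70.3% at −log10 q of at least 10, 89.3% with lists of equal length and 63.2% to 82.6% with 1 CTCF library left out. The near-edge share was 58.1% with regions merged from the WT lists alone, an alternative added after the data were seen.

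The H3K27ac difference of 3.28 points was -2.28 after division by covered length and -0.42 to 6.14 with 1 library left out. The side-to-side difference of -0.00287 points turned to 0.64 at −log10 q of at least 2, 0.21 with lists of equal length and 0.182 with the replicate block, and was -1.33 to 1.14 with 1 library left out. Replicates 2 and 4 share only a number between genotypes (correlation of deviations of WT 2 and KO 2 over 2457 sites, -0.14), and in a fit with that replicate block the H3K27ac difference was 3.93 points and limma called 0 sites (125 higher and 30 lower at an unadjusted p under 0.05). The count of H3K27ac calls at the sites was 0 under all 14 alternatives, a description because the rule used the WT lists. For PPARg no paired analysis was possible because the groups share no number.

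The count of PPARg calls in either direction, 136, was 10 when regions without variation were kept, 44 with a window of 0.5 kb each side, 62 with lists of equal length and 0 to 385 with 1 library left out. The cause was not tested. The PPARg difference of 13.3 points was 4.56 to 14.4 over its 7 alternatives. Peak lists carry no depth, so a site not called may be one below the threshold of its list.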
